A study of Homo sapiens with 6 samples.

Results

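To ask how epidermal growth factor (EGF) signalling components behaved when USP39 was depleted, the 10 members of a ligand and receptor set were read from RNA-seq counts of A2780 cells: the receptors EGFR, ERBB2, ERBB3 and ERBB4 and the ligands HBEGF, AREG, EREG, TGFA, NRG1 and BTC. Members were rows of the table whose gene symbol matched one of these names. Of the 10, 8 were among the 16571 gene symbols of the table. A2780 is an established human ovarian cancer cell line, labelled as serous. Of 6 libraries, 3 came from cells carrying pGIPZ-NC, a control built in the lentiviral vector that holds the hairpins, 3 came from cells carrying shUSP39, a hairpin against the spliceosome protein USP39, and both groups were infected with lentivirus. The labels do not say which of the study's hairpins the shUSP39 cells carried, and by the study's methods its stable lines were selected with puromycin. The USP39 transcript was not analysed here, and the knockdown was not checked in these libraries.

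ERBB receptors are receptor tyrosine kinases that pair with one another when a ligand binds, and they signal through the RAS-ERK and PI3K-AKT cascades. The ligands are made as membrane-bound precursors and are released by metalloproteases such as ADAM17. EGFR binds HBEGF, AREG, EREG, TGFA and BTC, whereas ERBB3 and ERBB4 bind neuregulins such as NRG1. ERBB2 has no known soluble ligand, and ERBB3 has little kinase activity, so each works mainly as a partner of the other receptors. In ovarian cancer the family is known as a growth signal of tumour cells.

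The libraries held between 28294819 and 32939264 counts. The number of genes with a count was 15446 and 14890 in shUSP39 replicates 2 and 3, against 12662 to 12819 in the other 4 libraries. Markers of serous ovarian epithelium were weak: PAX8 and EPCAM had at most 6 counts in a library, WT1 had no row, and KRT18 had the most counts of the 7 genes, up to 1075. MUC16 had 150 and 71 counts in shUSP39 replicates 2 and 3 and at most 6 in the other libraries. Summed over the list, the level ran from 21.9 to 25.3 CPM (counts scaled by the total of each library to one common size) in the controls and from 32.8 to 39.7 CPM after knockdown, with KRT18 higher and KRT8 lower among the 3 tested genes. The 3 leukocyte markers summed to at most 0.694 CPM and the 3 endothelial markers to at most 1.75 CPM. The 4 fibroblast markers summed to between 1120 and 1186 CPM in pGIPZ-NC and to between 456 and 477 CPM in shUSP39. COL1A2 made up nearly all of this sum, and 3 of the 4 genes were lower. Their part in the results below was not tested. In bulk samples such as these, fewer cells making a transcript and less of it per cell cannot be told apart.

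HBEGF and ERBB3 were the 2 members with more than traces of counts. Of the 8 with a row, 2 passed the filter on low counts. NRG1 and BTC had no row and were taken as 0 counts. This reading has a limit, because the table lists no transcript with 0 counts in all libraries (the smallest row sum was 1) and also lacks the main transcripts of genes that cells express. GAPDH, for instance, was listed without NM_002046 and with a mean of 698 counts. The same held for the receptors. EGFR had rows for 2 of its 9 RefSeq coding transcripts, NM_201282.1 and NM_201284.1, which encode short forms, and none for the full-length NM_005228. ERBB2 had rows for 2 of 30 and none for NM_004448. ERBB4 had 1 of 4, TGFA 1 of 4, NRG1 0 of 23 and BTC 0 of 2. By contrast HBEGF, AREG and EREG each have 1 RefSeq coding transcript, which was in the table, and ERBB3 had both of its 2. Low values of EGFR, ERBB2, ERBB4 and TGFA therefore describe the listed transcripts and not the whole gene, and for NRG1 and BTC there is no value of any transcript.

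**Figure D1:**
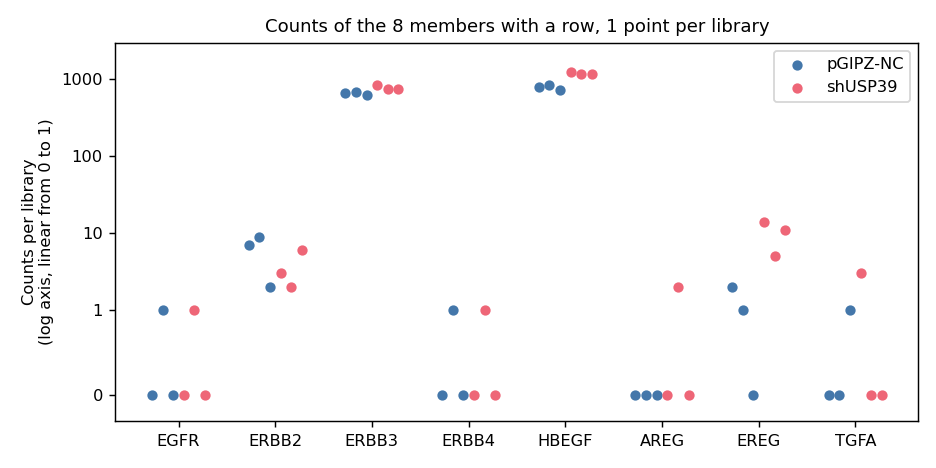
Counts per library of the 8 members with a row, on a log axis that is linear from 0 to 1, with blue points for the 3 pGIPZ-NC and red points for the 3 shUSP39 libraries. HBEGF and ERBB3 lie between 624 and 1255 counts in all 6 libraries, while the other 6 members reach at most 14.

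The sequences just upstream of HBEGF and EREG are shown because the groups did not overlap in either ligand, at very different levels. ERBB3, whose groups did not overlap either, had no entry. Both were read from the RefSeq promoter table (GRCh38.p14), in which 8 of the 10 members had an entry, and cover the 250 bases before the transcription start. Motifs were searched on both strands: AP-1 (TGANTCA), the cyclic AMP response element or CRE (TGACGTCA), the GC box (GGGCGG), the TATA motif (TATAAA) and the E-box (CACGTG). Capitals mark the matches, which are GC boxes in HBEGF and a TATA motif in EREG. The HBEGF sequence lies at chr5:140346604-140346853 on the minus strand and that of EREG at chr4:74364895-74365144 on the plus strand.
HBEGF: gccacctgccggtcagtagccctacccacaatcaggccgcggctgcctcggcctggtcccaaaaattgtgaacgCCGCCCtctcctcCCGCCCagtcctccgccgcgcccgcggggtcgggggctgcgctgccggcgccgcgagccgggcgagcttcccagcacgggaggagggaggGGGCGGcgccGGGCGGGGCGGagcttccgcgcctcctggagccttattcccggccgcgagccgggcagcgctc
EREG: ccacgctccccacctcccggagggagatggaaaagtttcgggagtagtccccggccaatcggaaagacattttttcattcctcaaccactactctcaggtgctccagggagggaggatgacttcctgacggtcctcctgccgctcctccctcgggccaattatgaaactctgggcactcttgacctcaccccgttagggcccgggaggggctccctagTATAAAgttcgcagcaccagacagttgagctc

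The HBEGF sequence held 5 GC boxes, between 58 and 176 bases before the start, and had a GC content of 76.4%. A GC box was in 42.6% of the 35116 promoters of this length, and their median GC content was 58.0%. The EREG sequence had a GC content of 58.0% and 1 TATA motif, which began 32 bases before the start and was in 10.7% of promoters. None of AP-1, CRE or E-box was in either window, which says nothing of the factors that bind these motifs. They were in 6.57%, 1.65% and 6.34% of promoters.

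HBEGF rose in shUSP39. HBEGF (heparin-binding EGF-like growth factor) is a ligand of EGFR and ERBB4 that is tethered to the cell surface until it is shed. The gene lies on chromosome 5 (139712428 to 139726188, minus strand, GRCh37), and its transcript has 6 exons. In the order of replicates 1, 2 and 3, pGIPZ-NC libraries held 786, 855 and 735 counts, whereas shUSP39 libraries held 1255, 1170 and 1168. Scaled to depth, these were 24.4, 25.96 and 25.98 CPM against 39.5, 38.7 and 39.7 CPM. Every shUSP39 library lay above every pGIPZ-NC library, and the gap between the groups exceeded the range within either. The mean level went from 25.4 ± 0.915 to 39.3 ± 0.535 CPM (SD, n = 3 each), 1.54-fold higher. By edgeR's quasi-likelihood test, which scales libraries by TMM factors, the log2 fold change (log2FC, shUSP39 over pGIPZ-NC) was 0.60 (SE 0.08, 95% interval 0.45 to 0.76). Its Benjamini-Hochberg adjusted p, taken over all 10695 genes tested, was 4.52e-07. Of all these genes 88.5% had a lower log2FC. With shUSP39 replicate 1 as the only knockdown library, the log2FC was 0.61 (adjusted p 0.000101). The change stayed under the 2-fold limit, which 6.81% of tested genes passed together with the adjusted p of 0.05.

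**Figure D2:**
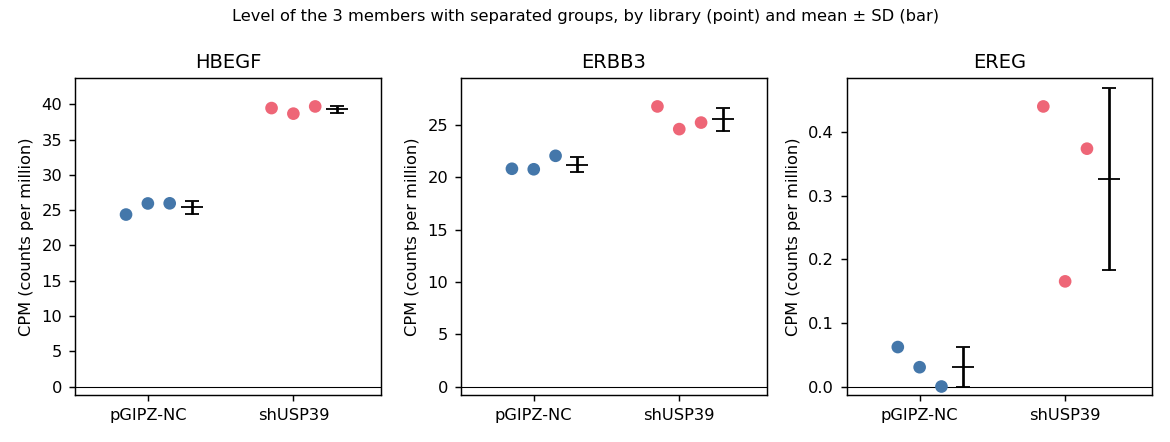
Level in CPM of HBEGF, ERBB3 and EREG in each library (points) with the mean ± SD of the 3 libraries of a group (bars); each panel has its own axis that includes 0. The shUSP39 points lie above the pGIPZ-NC points in all 3 panels, by 1.54-fold in HBEGF and 1.20-fold in ERBB3, and EREG stays below 0.5 CPM.

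ERBB3 was slightly higher in shUSP39, and its call depended on single libraries. ERBB3 is the receptor that binds neuregulins and recruits PI3K after pairing with ERBB2. It lies on chromosome 12 (56470583 to 56497289, plus strand, GRCh37), with 28 exons in its main transcript. The counts were 671, 684 and 624 in pGIPZ-NC and 851, 744 and 742 in shUSP39, or 20.8, 20.8 and 22.1 CPM against 26.8, 24.6 and 25.2 CPM. The groups did not overlap, with shUSP39 replicate 1 the highest library. The mean was 21.2 ± 0.730 CPM in the controls against 25.5 ± 1.12 CPM (SD, n = 3 each), 1.20-fold higher. Its log2FC was 0.24 (SE 0.09, 95% interval 0.06 to 0.42, adjusted p 0.0314 by edgeR). Leaving out single libraries put the adjusted p above 0.05 in 4 of 6 fits: 0.0807 without pGIPZ-NC replicate 1, 0.0946 without pGIPZ-NC replicate 2, 0.126 without shUSP39 replicate 1 and 0.0615 without shUSP39 replicate 3. The log2FC stayed between 0.20 and 0.27 in all 6. With shUSP39 replicate 1 as the only knockdown library it was 0.31 (adjusted p 0.0835). In HBEGF the corresponding range was 0.57 to 0.62, and the adjusted p was under 0.05 in all 6.

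**Figure D3:**
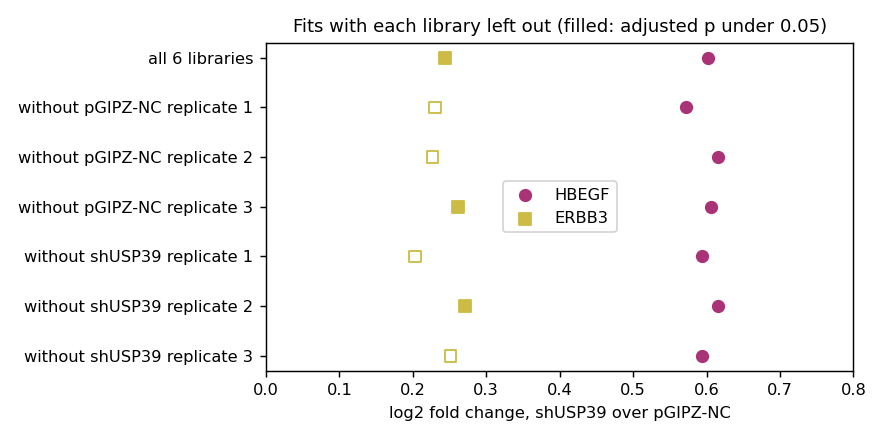
Log2 fold change of HBEGF (circles) and ERBB3 (squares), shUSP39 over pGIPZ-NC, with all 6 libraries and with each library left out in turn; filled symbols have an adjusted p under 0.05. HBEGF stays near 0.6 and filled throughout, while ERBB3 stays between 0.20 and 0.27 and is open in 4 of the 6 reduced fits.

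Both tested members thus passed the adjusted p in the upward direction, a result that 16.1% of all tested genes shared, with 17.5% passing in the downward direction and 33.6% in either. Under upper-quartile scaling the genes that passed split into 2077 higher and 1501 lower, in place of 1726 and 1872, and both members still passed. In both, the libraries of the groups did not overlap, which was so in 44.5% of tested genes. With only 2 members tested, these counts do not set the family apart from other genes. Both genes were far above the filter in either group, so neither entered the test through its higher group alone.

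ERBB3 was measured through a pair of transcripts, and their proportions were compared next. NM_001982.3 encodes the full-length receptor, and NM_001005915.1 encodes a short secreted form. The full-length transcript held 93.8% of ERBB3 counts in both groups. Its level was 19.9 ± 0.387 CPM in control and 24.0 ± 0.654 CPM in knockdown libraries (SD, n = 3 each). Fitted over transcripts, edgeR gave a log2FC of 0.25 (adjusted p 0.0346). The short transcript had 36, 38 and 49 counts in pGIPZ-NC and 68, 20 and 56 in shUSP39. Its share of ERBB3 counts was 5.37%, 5.56% and 7.85% in pGIPZ-NC and 7.99%, 2.69% and 7.55% in shUSP39. The shUSP39 group spanned the whole range of the control group, and replicate 2 was the lowest of the 6 libraries. The 95% exact binomial interval of that library was 1.65% to 4.12%, below those of shUSP39 replicate 1 (6.26% to 10.02%) and replicate 3 (5.75% to 9.69%), and it covers counting error only. In edgeR's test of transcript usage the proportions had an adjusted p of 0.994, where 3.69% of the 1628 genes tested passed. The mean share was 6.26% ± 1.38 in control and 6.08% ± 2.94 in knockdown libraries (SD, n = 3 each), a difference smaller than the spread in either group.

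Relative to ERBB3, HBEGF, a ligand of EGFR and ERBB4, was higher in every shUSP39 library. The ratio of HBEGF to ERBB3 counts was 1.17, 1.25 and 1.18 in pGIPZ-NC and 1.47, 1.57 and 1.57 in shUSP39. The mean went from 1.20 ± 0.0436 to 1.54 ± 0.0569 (SD, n = 3 each), and the ratios of the groups did not overlap. The two-sided exact permutation test gave p = 0.10, the smallest that 3 libraries against 3 allow and the value that groups without overlap always return. Per length of the main transcript (2358 bases in HBEGF and 5615 in ERBB3), HBEGF stood at 10.8 ± 0.388 RPKM (CPM divided by the length in kilobases) and ERBB3 at 3.78 ± 0.130 RPKM in pGIPZ-NC (SD, n = 3 each). In shUSP39 these levels were 16.7 ± 0.227 and 4.55 ± 0.199 RPKM (SD, n = 3 each). How reads shared by both ERBB3 transcripts were counted is not given in the sources used here, so its level per length may be off.

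EREG had few counts, nearly all of them in shUSP39. EREG (epiregulin) is a ligand of EGFR and ERBB4. It lies on chromosome 4 (75230862 to 75254466, plus strand, GRCh37) in a cluster of EGF family ligands with AREG (75310853 to 75320722) and BTC (75669969 to 75719733). The counts were 2, 1 and 0 in pGIPZ-NC and 14, 5 and 11 in shUSP39. Every shUSP39 library lay above every control library, and the highest count was in shUSP39 replicate 1, whose number of genes with a count (12819) was close to that of the controls. Summed over the group, 3 counts stood against 30, a CPM ratio of 10.2 with a 95% counting interval of 3.18 to 52.3, which leaves out the spread between libraries. EREG did not pass the filter on low counts, and it could have entered the test only through the shUSP39 group, where it was higher. The two-sided exact permutation test on CPM gave p = 0.10, the smallest the design allows. Groups without overlap always return this value, so it adds nothing to their separation. Without a filter, edgeR gave a log2FC of 3.19 (SE 1.35, adjusted p 0.0726). When 1 library was left out, EREG passed the filter in 4 fits, with an adjusted p of 0.0355 without pGIPZ-NC replicate 1, 0.0184 without shUSP39 replicate 2, 0.0776 when pGIPZ-NC replicate 2 was left out and 0.0934 when it was replicate 3. It was 0.0946 with shUSP39 replicate 1 as the only knockdown library. Even in shUSP39 the level was 0.327 ± 0.144 CPM (SD, n = 3), or 0.0708 RPKM, against 16.7 RPKM for HBEGF.

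The neighbouring ligand AREG (amphiregulin) had 0 counts in pGIPZ-NC, which allows up to 0.0321 CPM over the group, and 2 counts in shUSP39, both in replicate 2. The genome build holds a near-identical copy, AREGB, which had no row, so the AREG counts are uncertain. TGFA (transforming growth factor alpha) had 1 count in pGIPZ-NC replicate 3 and 3 counts in shUSP39 replicate 1. EGFR, the receptor for these ligands, had 1 count in pGIPZ-NC replicate 2 and 1 in shUSP39 replicate 2, and ERBB4 had the same pattern. ERBB2 had 7, 9 and 2 counts in pGIPZ-NC and 3, 2 and 6 in shUSP39. Its groups overlapped, and the CPM ratio of the summed counts was 0.625, with a 95% counting interval of 0.267 to 1.40. A difference in any of these 5 members was not detectable from these counts. Without a filter their adjusted p-values in edgeR's quasi-likelihood test lay between 0.417 and 0.999.

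Other genes of the pathway were then read from 6 lists ordered by role, 52 genes in all, of which 42 were tested. By edgeR, 5 of these were higher and 7 lower at an adjusted p under 0.05, and none passed the 2-fold limit as well. The share that passed was 28.6%, against 33.6% of all tested genes. Under upper-quartile scaling 6 were higher and 4 lower. Their median log2FC was -0.02, and that of all tested genes was 0.01.

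Among the other ligands, NRG4 fell. NRG4 is a neuregulin that binds ERBB4, and it was the single gene of 5 in its list to be tested. It lies on chromosome 15 (76228310 to 76352136, minus strand, GRCh37) and has 1 RefSeq coding transcript. The counts were 220, 140 and 133 in pGIPZ-NC and 87, 64 and 94 in shUSP39, with every shUSP39 library below the controls and pGIPZ-NC replicate 1 well above the other two. The level was 5.26 ± 1.37 CPM in control and 2.68 ± 0.542 CPM in knockdown libraries (SD, n = 3 each). The NRG4 log2FC was -0.996 (SE 0.22, adjusted p 0.000827). Per length, the NRG4 level in pGIPZ-NC was 1.64 RPKM. EPGN had 1 count and NRG3 had 2, all in shUSP39, and EGF and NRG2 had no row.

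In the shedding list, 4 of 5 genes were tested and 1 passed. ADAM17, the protease that releases HBEGF and other ligands, was slightly lower: 110.9 ± 1.61 against 101.8 ± 4.59 CPM (SD, n = 3 each), a log2FC of -0.15 (adjusted p 0.0255). The adjusted p of ADAM17 was above 0.05 in 6 of 17 alternatives. It was 0.129 under upper-quartile scaling, 0.0672 with library size alone, 0.448 with shUSP39 replicate 1 as the only knockdown library, 0.0638 without pGIPZ-NC replicate 1, 0.0599 without shUSP39 replicate 2 and 0.138 without shUSP39 replicate 3.

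Of the 7 tested adaptors, 1 passed. SOS1, the exchange factor that loads RAS with GTP, had a log2FC of -0.17 (SE 0.04, adjusted p 0.00303). In the PI3K and AKT list 1 of 7 tested genes passed. PIK3R1, the regulatory subunit of PI3K, had 179, 229 and 132 counts in pGIPZ-NC and 370, 344 and 235 in shUSP39. Its log2 fold change was 0.82 (SE 0.17, adjusted p 0.000329), and the groups were close but did not overlap. PIK3R1 has 4 RefSeq coding transcripts, all with a row, and how reads they share were counted is not given in the sources used here.

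Along the cascade from RAS to ERK, all 10 genes were tested, and 1 was higher and 2 were lower. NRAS fell from 263 ± 12.8 to 210.2 ± 11.9 CPM (SD, n = 3 each), a log2FC of -0.35 (SE 0.05, adjusted p 8.27e-07). MAP2K1, a kinase directly above ERK, rose from 259 ± 3.53 to 297 ± 2.46 CPM (SD, n = 3 each), a log2FC of 0.17 (SE 0.04, adjusted p 0.000512). The other 7 genes did not pass. Among them was MAP2K2, also a kinase directly above ERK and named after its values were seen. Its level was 523.5 ± 8.32 CPM in control and 537.9 ± 42.9 CPM in knockdown libraries (log2FC 0.01, adjusted p 0.842).

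**Figure D4:**
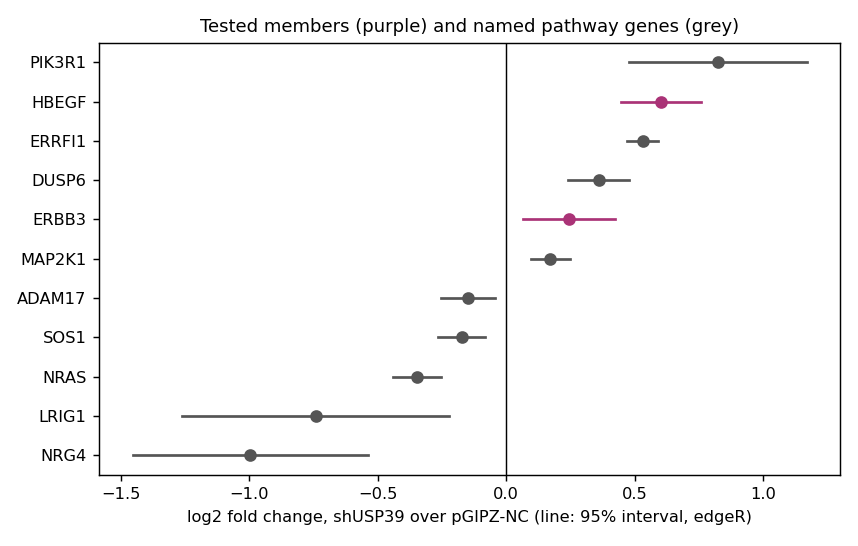
Log2 fold change, shUSP39 over pGIPZ-NC, of the 2 tested members (purple) and 9 named pathway genes (grey), with 95% intervals from edgeR (lines). PIK3R1, HBEGF and ERRFI1 have the highest values of those shown and NRG4 the lowest.

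Negative regulators included both directions. Of 13 tested genes 3 were higher and 2 lower. ERRFI1 (also called MIG6), a feedback inhibitor that binds the kinase domain of EGFR, was abundant, at 534 RPKM in control and 786 RPKM in knockdown libraries. Its counts were 54590, 53756 and 46377 in pGIPZ-NC and 79357, 73817 and 69462 in shUSP39, with no overlap in CPM. The level went from 1655 ± 33.6 to 2433 ± 67.7 CPM (SD, n = 3 each), a log2FC of 0.53 (SE 0.03, adjusted p 4.81e-14). DUSP6, a phosphatase that inactivates ERK, rose from 77.6 ± 4.84 to 101.3 ± 3.69 CPM (SD, n = 3 each), a log2FC of 0.36 (SE 0.06, adjusted p 1.50e-05). LRIG1, a membrane protein that lowers ERBB receptor levels, had 161, 125 and 83 counts in pGIPZ-NC and 52, 91 and 74 in shUSP39. The LRIG1 groups overlapped in CPM, and its log2FC was -0.74 (SE 0.25, adjusted p 0.0239). The adjusted p of LRIG1 was 0.178 without pGIPZ-NC replicate 1, 0.0568 without pGIPZ-NC replicate 2 and 0.122 without shUSP39 replicate 1. The other two that passed, named after their values were seen, were SPRY1, an inhibitor of receptor signalling to ERK (log2FC 0.29, adjusted p 0.000257), and CBL, a ubiquitin ligase of activated EGFR (log2FC -0.13, adjusted p 0.00605). The single-gene adjusted p-values of the pathway lists are from edgeR's quasi-likelihood test. Some of these genes also had fewer rows than RefSeq coding transcripts. LRIG1 had 1 row for 7, ADAM17 and SOS1 each 1 for 3, MAP2K1 and DUSP6 each 1 for 2, and SPRY1 3 for 5. Their values therefore describe the listed transcripts and not the whole gene.

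**Figure D5:**
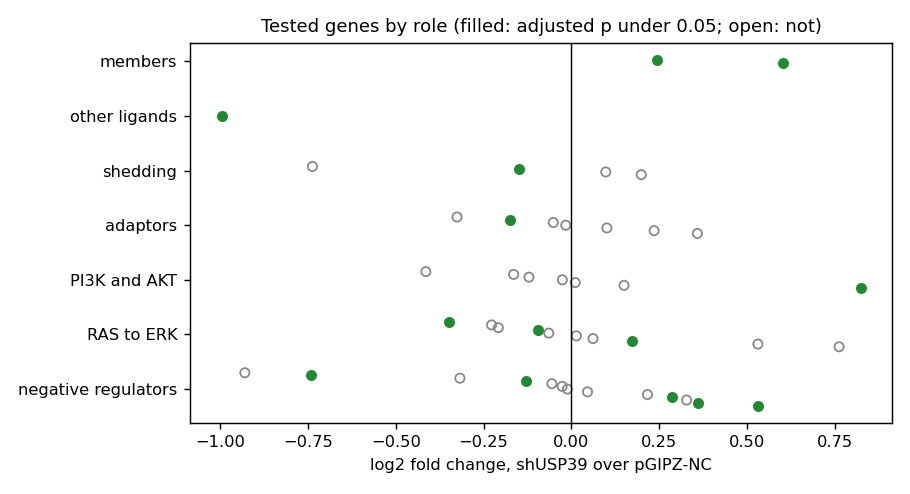
Log2 fold change, shUSP39 over pGIPZ-NC, of every tested member and pathway gene, 1 point per gene, in rows by role. Filled points have an adjusted p under 0.05 and open points do not; filled points lie on both sides of 0 among RAS to ERK genes and negative regulators.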

How the data were processed

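RNA-seq was performed by the authors on total RNA of A2780 cells, whose deposited table gives unnormalized counts for each RefSeq transcript in each library. The submitters' processing notes name HISAT2, Cufflinks and the hg19 build, without roles. The counter and its use of strand and of reads shared between transcripts are not given in the sources used here. Columns of the authors' group means, fold changes, p-values and q-values were not used.

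Counts of 21368 transcripts were summed per symbol, after 46 of 47 symbols in the form of a date were replaced through the RefSeq accession. Low counts were removed by filterByExpr, and genes were tested after TMM scaling with edgeR 4.0.16 (R 4.3.3, robust quasi-likelihood, group as the only term, all 6 libraries). P-values were adjusted over all genes tested. The SE was the absolute log2 fold change divided by the square root of F. CPM used the total count of a library. Transcript usage was tested with diffSpliceDGE. Alternatives were other scalings and filters, a 2-fold limit, a replicate block, each library left out, single transcripts in place of sums, DESeq2 1.42.0 and limma 3.58.1. The tests were first run on simulated data. Groups and replicate numbers came from the sample titles. The series and the study call the replicates biological and independent, without saying how they were grown, and p-values measure the spread between these libraries. Counting intervals and zero limits (3 counts) cover counting error only. The build was matched with GRCh37 (GENCODE release 44 mapped to it) for positions and lengths.

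The members and lists were chosen with earlier results of these data known. Named were all 10 members and, per pathway list, the genes past the adjusted p of 0.05 and 1.5-fold, or the 3 with the largest change past the adjusted p where fewer than 3 passed both. Of these, 1 pathway gene is counted in its list but not reported here. Within groups r of log2 CPM was 0.988 to 0.990 over genes, and the lowest chi-square per degree of freedom was 4.69, so no pair of libraries agreed within sampling noise.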

Additional observations from a re-analysis of the deposited data

How the results depend on the processing

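HBEGF kept its direction and an adjusted p under 0.05 in all 17 alternatives, with log2 fold changes of 0.57 to 0.65. ERBB3 kept its direction in 17 and the adjusted p in 11. HBEGF, ERBB3 and the pathway genes named by the rule kept their sign, and SPRY1, CBL and MAP2K2 were not run under alternatives. The number of members past the adjusted p was 2 in the report. It was 1 without a filter, where ERBB3 had an adjusted p of 0.0543, and 0 with the 2-fold limit, under which 728 of all genes remained in place of 3598. Leaving out single libraries gave 1 to 3 members. These counts include EREG without shUSP39 replicate 2 (with HBEGF and ERBB3) and without pGIPZ-NC replicate 1 (with HBEGF), where it passed the filter only through its higher group, so they are no support for it. The causes were not tested. In an alternative chosen after seeing the data, with shUSP39 replicate 1 alone against the 3 pGIPZ-NC libraries and its spread assumed to be like theirs, 1 member (HBEGF, adjusted p 0.000101) and 2244 genes passed, with fewer libraries in the fit. The number of pathway genes ran from 8 to 14. Over all genes, the median log2FC was 0.12 without a filter and 0.01 in the report.

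With the replicate number as a block, 2 members, 14 pathway genes and 3981 genes passed, and no member's call changed. For libraries with the same number, the correlations of their deviations from the group means were 0.0688, 0.00477 and 0.0216. Between libraries with other numbers they ran from -0.0517 to 0.0302, and 3 of 6 libraries correlated best with their own number. Whether libraries with the same number share more than that number was not tested.

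Precision is low for EGFR, ERBB2, ERBB4, AREG and TGFA, with at most 9 counts in a library, and for EREG, with at most 14. For EGFR, ERBB2, ERBB4 and TGFA, the part of depth and that of transcripts without a row were not tested.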
